A study of Mus musculus with 3 samples.

Results

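A set of secreted growth factors and their inhibitors, the BMP and GDF ligands and antagonists, was followed in the mouse mandibular condyle, the jaw side of the temporomandibular joint. The set held 10 of the 32285 genes in the count tables, with rows taken by gene symbol. Its members were chosen with earlier results of these data known. It comprised 7 ligands (Bmp2, Bmp3, Bmp4, Bmp5, Bmp6, Bmp7 and Gdf5) and 3 secreted antagonists (Grem1, Fst and Chrdl1), and each symbol matched 1 row. Single-cell RNA libraries had been made from wild-type C57BL6 mice at 3 stages: embryonic day 16.5 (E16.5), the day of birth (P0) and 13 weeks of age (13w, adult). At each stage the condyles of 7 to 20 mice were pooled, digested with collagenase and dispase, sorted for live cells by dye (Calcein-positive, DAPI-negative) and made into 1 droplet library that counts the 3' ends of transcripts. No group carried a mutation or a treatment, and the sort selected living cells without a lineage marker.

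Bone morphogenetic proteins (BMPs) and growth and differentiation factors (GDFs) are secreted dimers of the TGF-beta superfamily. They bind paired type I and type II serine/threonine kinase receptors, which phosphorylate Smad1, Smad5 and Smad9 and so induce targets such as the Id genes. In cartilage they drive chondrocyte formation and hypertrophy, and antagonists outside the cell, gremlin, follistatin and the chordin family among them, bind ligands and limit where they act.

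After cells with fewer than 500 genes or more than 10% mitochondrial UMIs (unique molecular identifiers, 1 per captured transcript) were left out, 4562 E16.5, 3999 P0 and 8028 13w cells remained, with 100546288, 94002214 and 113130140 UMIs. Median depth was 17401.5, 17954 and 11010 UMIs per cell. Cells were divided by Col9a1, which encodes a cartilage collagen: a cell with at least 3 Col9a1 UMIs per 10000 was Col9a1-high. These made up 22.2%, 43.7% and 20.2% of cells at E16.5, P0 and 13w, and 38.2%, 66.9% and 36.5% of the UMIs. They were also deeper, with medians of 40311.5, 36409.5 and 23612 UMIs against 14937, 11771 and 9547 in the other cells. Just inside the limit, at 3 to 4 per 10000, lay 86, 57 and 183 cells, and just outside it, at 2 to 3, lay 153, 114 and 270. The 9 other chondrocyte markers were all higher in Col9a1-high cells at each stage. Their median ratio was 32.2-fold in the E16.5, 40.6-fold in the P0 and 11.5-fold in the 13w library. At 13w, 7 of the 9 reached 2-fold in that class, and the lowest ratio was 1.15-fold. The 6 leukocyte markers were all lower there: their summed level was 5.57 CPM in Col9a1-high cells against 226 CPM in the other cells at E16.5, 1.91 against 46.0 CPM at P0, and 23.6 against 268 CPM at 13w. Non-skeletal clusters held 6.95%, 3.05% and 5.61% of cells at the 3 stages, so the labelled condylar cartilage cells included some blood, vascular and muscle cells and osteoclasts. The adult Col9a1-high class also drew on a cluster led by Bglap, Bglap2 and 4631405J19Rik, with 58.7% of its 1321 cells. In that cluster the osteoblast markers had the highest mean fold of all marker lists.

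Levels are given as CPM, the UMIs of a gene per 1000000 UMIs of the same cells. With 1 pooled library per stage there was no test and no replicate check, and every interval covers counting error only, at the 95% level. Measured genes are those that reached 10 CPM in one of the groups compared. A measured gene was called higher or lower at a ratio of 2-fold or more with a counting interval that excluded equality. In summed counts, fewer cells of a type and less RNA per cell cannot be told apart. Rescaling the totals with TMM factors shifted the log2 ratio of every gene upwards, by 0.18 for P0 over E16.5, 0.16 for 13w over P0, and 0.32, 0.27 and 0.38 for Col9a1-high over other cells at E16.5, P0 and 13w. With it, genes called higher made up 59.6%, 65.5%, 59.7%, 60.4% and 53.0% of all calls in those 5 comparisons, against 37.9%, 51.6%, 37.9%, 42.3% and 25.7% with totals.

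The sequence upstream of the transcription start is shown for Bmp6 and Bmp4. At E16.5 and P0, Bmp6 was called higher and Bmp4 lower in Col9a1-high cells. The Bmp4 call at E16.5 was borderline, at 2.10-fold, and was lost with TMM scaling. Each is the 250 bases before the start, 5' to 3' on the gene's own strand, from the RefSeq promoter table on GRCm38.p6, in which 4 of the 10 members matched; the genome build of the counts was another, GRCm39. The Bmp6 window was chr13:38345466-38345715 on the plus strand, with 68.8% G and C, and the Bmp4 window was chr14:46390670-46390919 on the minus strand, with 63.2%. Capitals mark matches to GGGCGG, the core of a GC box, on either strand.
Bmp6: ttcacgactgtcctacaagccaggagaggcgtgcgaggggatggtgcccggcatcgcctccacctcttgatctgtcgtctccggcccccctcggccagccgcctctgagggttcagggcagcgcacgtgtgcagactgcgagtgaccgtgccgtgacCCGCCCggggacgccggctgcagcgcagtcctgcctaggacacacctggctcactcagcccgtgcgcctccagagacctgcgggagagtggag
Bmp4: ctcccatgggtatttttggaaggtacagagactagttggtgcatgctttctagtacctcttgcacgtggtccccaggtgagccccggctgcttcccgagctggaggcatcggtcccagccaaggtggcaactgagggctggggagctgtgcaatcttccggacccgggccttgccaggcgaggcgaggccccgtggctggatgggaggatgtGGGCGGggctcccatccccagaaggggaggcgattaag
Bmp6 held 1 match, on the reverse strand, that began 93 bases before the start, and Bmp4 held 1 match on the given strand that began 38 bases before it. Also searched on both strands were the TATA box as TATAAA, the CCAAT box, and GGCGCC, which can overlap the GC box; none had a match in either window. Over 32851 promoter windows of the same length, GGGCGG was present in 32.7%. The share was 9.59% for GGCGCC, 12.4% for TATAAA and 33.8% for CCAAT. A match describes the letters only.

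Between P0 and E16.5 the cartilage-associated ligands Bmp2 and Bmp6 were the measured members that differed by at least 2-fold. Bmp2, which is required for chondrocyte maturation and bone formation, stood at 23.9, 86.7 and 127.9 CPM at E16.5, P0 and 13w. It was 3.63-fold higher at P0 than at E16.5 (log2 ratio 1.86, interval 1.79 to 1.93), while the 13w to P0 ratio of 1.47-fold stayed under the limit. Bmp6, a ligand made by chondrocytes approaching hypertrophy, had 28.5, 78.9 and 25.0 CPM at the 3 stages, so that it was highest at birth. Its P0 level was 2.76-fold the E16.5 level (log2 ratio 1.47, 1.40 to 1.53). Of the 6 members measured in this comparison, 2 were higher and 0 lower at P0, beside 5.31% of 8261 measured genes called higher and 8.72% called lower. The median log2 ratio of the 6 was 0.36, against -0.13 over all measured genes.

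The 4 remaining measured members differed by less than 2-fold between P0 and E16.5. Bmp4, a ligand of mesenchyme and perichondrium, had 14.2 CPM at P0 and 17.3 CPM at E16.5. Bmp7, which acts in kidney, eye and skeletal development, had 30.5 CPM at P0 and 31.7 CPM at E16.5, a difference within counting error. Fst, which encodes follistatin and binds activins as well as some BMPs, had 30.7 CPM at P0 and 40.2 CPM at E16.5. Chrdl1, a chordin-like protein that binds BMPs, had 49.5 CPM at P0 and 28.8 CPM at E16.5. The low members Bmp3, Bmp5, Gdf5 and Grem1 stayed under 10 CPM. Among them, Gdf5, the joint-forming ligand, had 8.78 CPM at P0 and 1.86 CPM at E16.5, and Grem1, which binds Bmp2, Bmp4 and Bmp7, had 1.01 CPM at P0 and 4.88 CPM at E16.5. Bmp5, a ligand that shapes skeletal condensations, had 7.98 CPM at P0 and 7.90 CPM at E16.5, and Bmp3, which opposes osteogenic BMPs, had 2.55 CPM at P0 and 1.71 CPM at E16.5.

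**Figure D1:**
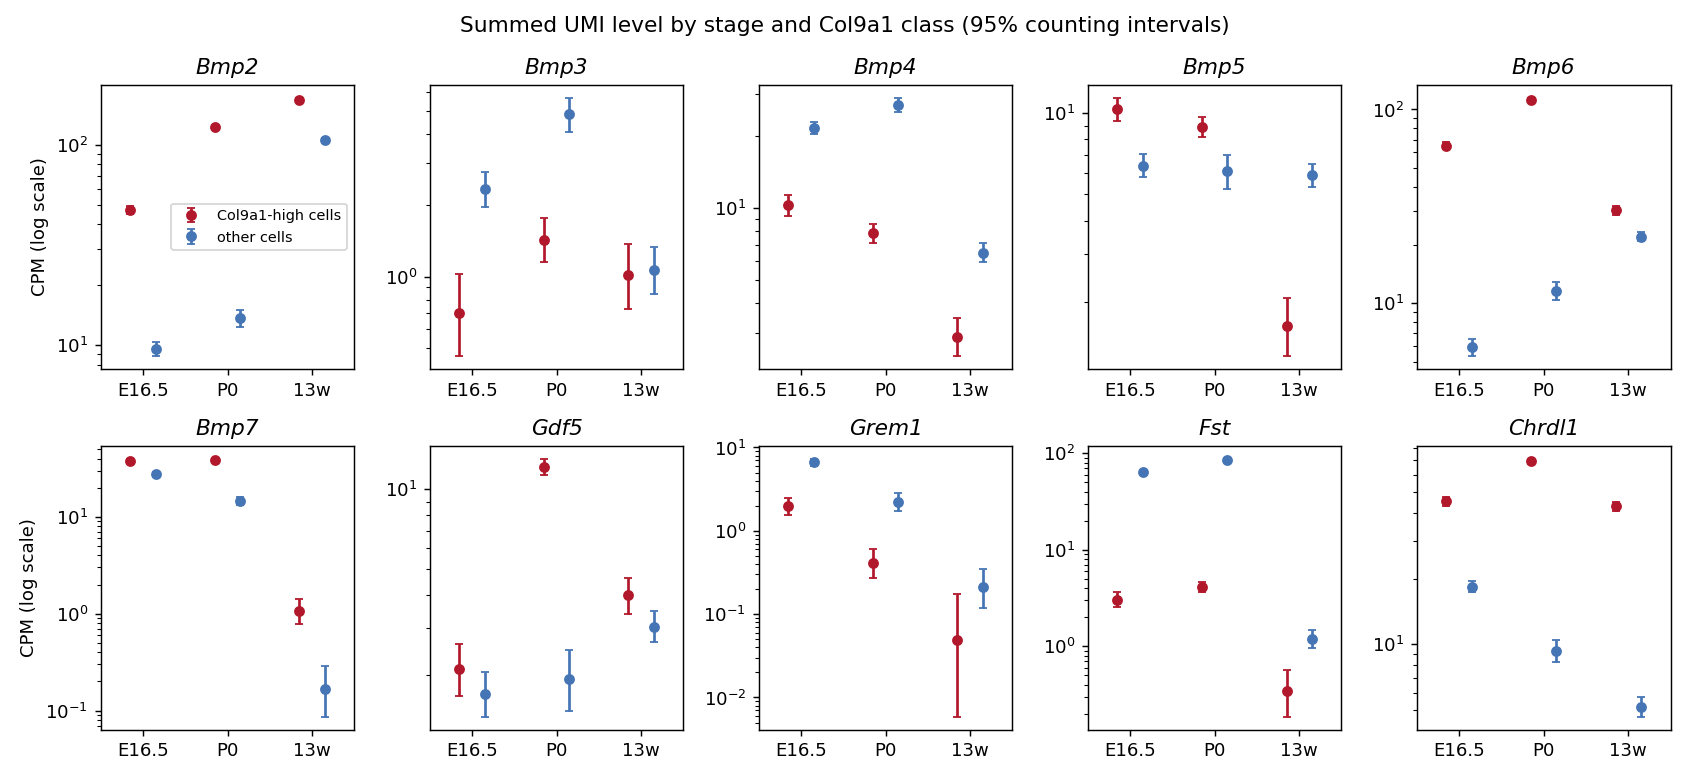
Level of each member in CPM at E16.5, P0 and 13w, on a log axis of its own per gene, for Col9a1-high cells and other cells, with 95% counting intervals and 1 library per stage. Bmp7 stands at 1.07 CPM in Col9a1-high and 0.167 CPM in other cells at 13w, below both earlier stages, while Bmp2 in the other cells stands at 105.2 CPM at 13w, above them.

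In the adult condyle 5 of the 6 measured members were lower than at birth and none was higher. Genes called lower made up 7.93% of the 8098 measured, and genes called higher 8.46%. Bmp7 had 0.495 CPM at 13w against 30.5 CPM at P0: only 56 UMIs in 8028 cells, against 2864 UMIs in 3999 cells. It was 61.5-fold lower (log2 ratio -5.94, -6.35 to -5.56). Fst had 0.884 CPM at 13w against 30.7 CPM at P0, 34.8-fold lower (log2 ratio -5.12, -5.42 to -4.83), and rested on 100 UMIs at 13w. Smaller differences were found for Bmp6 (25.0 CPM at 13w against 78.9 CPM at P0, 3.15-fold lower), Bmp4 (5.20 against 14.2 CPM, 2.73-fold lower) and Chrdl1 (19.0 against 49.5 CPM, 2.60-fold lower). Bmp2 was the measured member that was not lower. The median log2 ratio of the 6 members was -1.55, against -0.13 over all measured genes. The unmeasured members also had smaller values at 13w than at P0: Bmp3 1.05 and 2.55 CPM, Bmp5 4.33 and 7.98 CPM, Gdf5 3.39 and 8.78 CPM, and Grem1 0.150 and 1.01 CPM, the last on 17 UMIs at 13w.

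Because the share of Col9a1-high cells differed between stages, the same ratios were taken within each class. The class itself was not alike across stages. Col1a1, one of the osteoblast markers, had 994, 3559 and 12469 CPM in Col9a1-high cells at E16.5, P0 and 13w. Within Col9a1-high cells, Bmp2 had 122.8 CPM at P0 and 47.0 CPM at E16.5, 2.61-fold higher, and Gdf5 had 12.2 CPM at P0 and 2.11 CPM at E16.5, 5.77-fold higher. The Bmp6 ratio in this class was 1.72-fold (112.2 CPM at P0 and 65.1 CPM at E16.5), below the limit. Thus 2 members were higher and 0 lower in Col9a1-high cells at P0, beside 4.79% and 5.08% of all measured genes. In the other cells no measured member passed the limit between P0 and E16.5, beside 5.44% of all genes higher and 7.27% lower: Bmp6 had 11.6 CPM at P0 and 5.94 CPM at E16.5, and Bmp7 had 14.4 CPM at P0 and 28.0 CPM at E16.5. Fst, which had less at P0 over all cells (log2 ratio -0.39), had more at P0 within each class, all under 2-fold. In Col9a1-high cells it had 4.10 CPM at P0 and 3.05 CPM at E16.5 (log2 ratio 0.43, 0.11 to 0.76). In the other cells it had 84.7 and 63.2 CPM (0.42, 0.35 to 0.49). The part of background in the low Fst values of Col9a1-high cells was not tested.

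The adult difference in Bmp7 held in both classes. Bmp7 had 1.07 CPM at 13w against 38.4 CPM at P0 in Col9a1-high cells (log2 ratio -5.17), and 0.167 CPM at 13w against 14.4 CPM at P0 in the other cells (log2 ratio -6.43). Lower in Col9a1-high cells at 13w were 3 members, Bmp6, Bmp7 and Gdf5, and none was higher, beside 12.0% and 6.97% of all genes. Bmp6 had 30.2 CPM at 13w against 112.2 CPM at P0 in that class, and Gdf5 had 4.00 CPM at 13w against 12.2 CPM at P0. Chrdl1, lower over all cells, differed by less than 2-fold within both classes: 43.1 CPM at 13w against 69.3 CPM at P0 in Col9a1-high cells, and 5.16 against 9.30 CPM in the other cells. Bmp6 in the other cells had more at 13w, 22.1 CPM against 11.6 CPM at P0, also under 2-fold. In the other cells Bmp4, Bmp7 and Fst were lower at 13w and Bmp2 was higher, beside 7.75% of all genes lower and 9.74% higher. Fst there had 1.20 CPM at 13w against 84.7 CPM at P0 (log2 ratio -6.14), and Bmp4 had 6.51 CPM at 13w against 27.0 CPM at P0 (log2 ratio -2.05).

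Bmp2 was 7.71-fold higher in the other cells at 13w, with 105.2 CPM against 13.6 CPM at P0 (log2 ratio 2.95). Some cartilage transcripts were also higher there. Col2a1 stood at 3189 CPM in the other cells at 13w against 290 CPM at P0, and Acan, which encodes the proteoglycan aggrecan, at 1095 against 522 CPM. Hapln1 had 735 against 373 CPM and Sox9 659 against 233 CPM. Others were not higher: Matn3 had 4.84 CPM at 13w against 5.79 CPM at P0, and Col9a1, which defines the class, 38.4 against 54.1 CPM. In cells without any Col9a1 UMI (median depth 8676 UMIs at 13w and 10722 at P0), Bmp2 had 87.5 CPM at 13w and 14.6 CPM at P0, and Col2a1 had 904.8 CPM at 13w and 235.6 CPM at P0. The part of cartilage transcripts in the result was not tested. Bmp2 UMIs also appeared in 13w cells of leukocyte clusters, among which the osteoclast and erythroid clusters were counted, at 41.0 CPM. There they were unevenly spread, with 67.5 CPM (57.2 to 79.2) in the cluster led by Elane, Prtn3 and Ctsg, 13.0 CPM (7.80 to 20.2) in the one led by Camp, Ngp and S100a9, and 3.24 CPM (0.669 to 9.48) in the one led by Igkc, Ighm and Vpreb3.

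**Figure D2:**
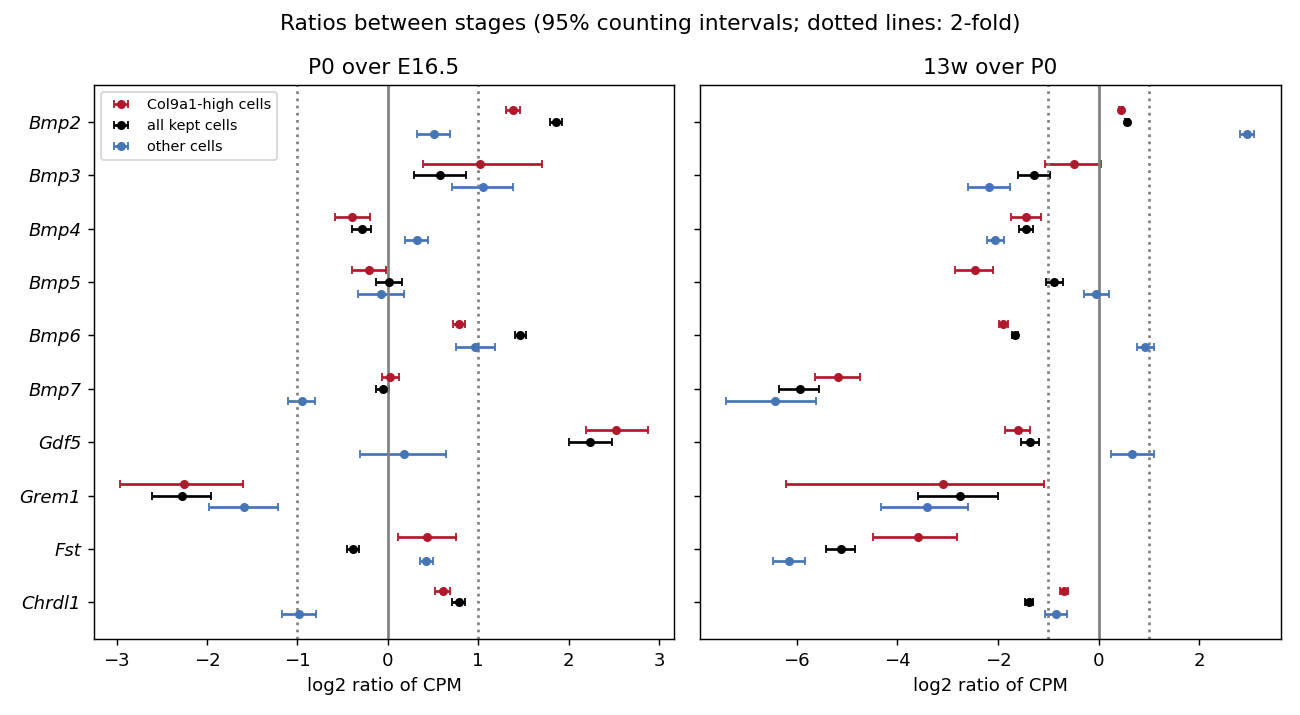
Log2 ratio of CPM of each member for P0 over E16.5 and for 13w over P0, in Col9a1-high cells, all kept cells and other cells, with 95% counting intervals and dotted lines at 2-fold; the 2 panels have different axis ranges. For 13w over P0, Bmp7 and Fst lie at -5.94 and -5.12 in all kept cells, and Bmp2 lies at 2.95 in the other cells.

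Col9a1-high cells and the other cells held different members of the set. At E16.5 Bmp6 had 65.1 CPM in Col9a1-high cells and 5.94 CPM in the other cells, 11.0-fold higher (log2 ratio 3.45, 3.30 to 3.62). Bmp2 had 47.0 CPM in Col9a1-high cells and 9.58 CPM in the other cells, 4.91-fold higher, and Chrdl1 had 45.5 and 18.4 CPM, 2.48-fold higher. Fst showed the opposite arrangement, with 3.05 CPM in Col9a1-high cells and 63.2 CPM in the other cells, 20.7-fold lower (log2 ratio -4.37, -4.65 to -4.11). Bmp4 was also lower, with 10.3 CPM in Col9a1-high cells and 21.6 CPM in the other cells, 2.10-fold; with TMM scaling it fell short of 2-fold. Thus 3 of 7 measured members were higher and 2 lower in Col9a1-high cells, beside 9.29% and 15.2% of 8443 measured genes. Bmp7 (37.6 CPM in Col9a1-high cells and 28.0 CPM in the other cells) and Bmp5 (10.3 and 6.39 CPM) differed by less than 2-fold. The Bmp5 ratio, 0.69 on the log2 scale, was 1.01 with TMM scaling and so passed 2-fold there.

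All 7 members measured at P0 differed between the classes, 5 higher and 2 lower in Col9a1-high cells, beside 10.5% and 14.4% of 8222 measured genes. Bmp6 had 112.2 CPM in Col9a1-high cells and 11.6 CPM in the other cells, 9.66-fold higher. Bmp2 had 122.8 and 13.6 CPM in the same order, 9.0-fold higher, and Chrdl1 had 69.3 and 9.30 CPM, 7.45-fold higher. Gdf5 was 6.30-fold higher, with 12.2 CPM in Col9a1-high cells and 1.93 CPM in the other cells (log2 ratio 2.65, 2.27 to 3.06), and Bmp7 was 2.66-fold higher, with 38.4 and 14.4 CPM. Fst (4.10 CPM in Col9a1-high cells and 84.7 CPM in the other cells) was again 20.7-fold lower, and Bmp4 (7.85 and 27.0 CPM) was 3.44-fold lower.

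By 13w only Chrdl1 of 3 measured members passed the limit, with 43.1 CPM in Col9a1-high cells and 5.16 CPM in the other cells, 8.34-fold higher (log2 ratio 3.06, 2.90 to 3.23). Genes called higher made up 3.79% of the 7839 measured and genes called lower 11.0%; 0 members were lower. Bmp2 had 167.3 CPM in Col9a1-high cells and 105.2 CPM in the other cells, 1.59-fold, which passed 2-fold with TMM scaling. Bmp6 had 30.2 and 22.1 CPM in the same order. The median log2 ratio of the measured members was 0.69, 2.65 and 0.67 at E16.5, P0 and 13w, against -0.18, -0.10 and -0.31 over all measured genes.

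Seen as shares of UMIs, Col9a1-high cells held 75.2%, 94.8% and 47.7% of all Bmp2 UMIs at E16.5, P0 and 13w, and 87.1%, 95.1% and 43.9% of all Bmp6 UMIs. For Chrdl1 the shares were 60.5%, 93.8% and 82.7%. Beside these, the class held 38.2%, 66.9% and 36.5% of the UMIs of all genes. Fst lay mostly outside the class, with 2.90%, 8.93% and 14.0% of its UMIs in Col9a1-high cells, and Grem1 likewise with 15.5%, 27.4% and 11.8%. The last Grem1 share was 2 of 17 UMIs, with an interval of 1.46% to 36.4%. Few cells carried 50% of the follistatin transcripts: 100 of 4562 cells at E16.5 and 62 of 3999 at P0. Bmp2 was spread over few cells too, with 50% of its UMIs in 98, 147 and 261 cells. At P0 the number was 80 for Bmp3, 152 for Bmp4, 131 for Bmp5, 324 for Bmp6 and 341 for Bmp7. It was 113 for Gdf5, 19 for Grem1, on 95 UMIs, and 280 for Chrdl1.

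Detection per cell was compared after each cell was thinned to 3000 UMIs, which left out 170, 124 and 321 shallower cells. At equal depth Bmp2 was found in 11.2% of Col9a1-high cells and 2.76% of the other cells at E16.5, in 21.7% and 3.77% at P0, and in 26.0% and 14.7% at 13w. Fst was found in 0.505% of Col9a1-high and 11.6% of other cells at E16.5, in 1.32% and 11.3% at P0, and in 0.128% and 0.391% at 13w. Bmp7 was found in 10.8% of Col9a1-high and 6.20% of other cells at E16.5, in 10.8% and 2.77% at P0, and in 0.320% and 0.0651% at 13w. As a measure of free RNA, cells of leukocyte clusters, which should lack Fst and Bmp7, showed Fst in 1.37% and Bmp7 in 0.685% at E16.5, and in 0.280% and 0.560% at 13w; P0 had only 17 such cells. Bmp2 was found in 1.37% of these cells at E16.5 and 3.36% at 13w. Its level differed between leukocyte clusters at 13w. At E16.5 it was 17.8 CPM in them (45 UMIs in 10 of 184 cells), against 9.58 CPM in all cells outside the Col9a1-high class. Whether these Bmp2 UMIs were background was not tested. Before thinning, the median depth of the cells of leukocyte clusters was 8090.5 UMIs at E16.5 and 7874 UMIs at 13w. After thinning, the E16.5 leukocyte-cluster shares rested on 2 cells with Fst and 1 with Bmp7, of 146 cells. The 13w shares rested on 1 cell with Fst and 2 with Bmp7, of 357 cells. The counting intervals of these 13w shares overlapped those of the adult Col9a1-high and other cells. At E16.5 Fst had 3.05 CPM (2.52 to 3.65) in Col9a1-high cells and 2.38 CPM (0.872 to 5.17) in leukocyte clusters. Whether these Fst UMIs, or the adult UMIs of Fst and Bmp7, were background was not tested. Without thinning, Bmp2 was found in 42.0% of Col9a1-high and 10.4% of other cells at E16.5, in 63.1% and 12.6% at P0, and in 59.5% and 30.8% at 13w. The unthinned shares of Fst were 5.62% and 18.9%, 5.15% and 16.2%, and 0.494% and 0.843% in the same order, and those of Bmp7 60.7% and 27.9%, 59.2% and 14.7%, and 2.28% and 0.125%.

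Levels were next followed along Col9a1 itself. Cells with 0 Col9a1 UMIs had 5.03, 9.36 and 21.5 CPM of Bmp6 at E16.5, P0 and 13w, and cells with over 30 per 10000 had 164.1, 186.6 and 29.5 CPM. For Bmp2 these ends were 9.64, 14.6 and 87.5 CPM without Col9a1 and 128.7, 221.6 and 171.9 CPM over 30. Both ligands thus differed most along Col9a1 at E16.5 and P0. Chrdl1 differed along Col9a1 at all 3 stages, with 13.7, 5.93 and 3.17 CPM without Col9a1 and 64.4, 103.4 and 110.0 CPM over 30. Bmp7 did not follow that order: it was highest in the intermediate range of 3 to 10 per 10000, with 54.3 CPM at E16.5 and 46.1 CPM at P0, and had 14.5 and 27.2 CPM in the cells over 30. Fst had 101.3 CPM at E16.5 and 112.9 CPM at P0 in cells without Col9a1, and 0 and 1.40 CPM in the cells over 30; for the 0 UMIs at E16.5, the exact interval ends at 3.34 CPM. The top range held only 41, 217 and 39 cells.

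**Figure D3:**
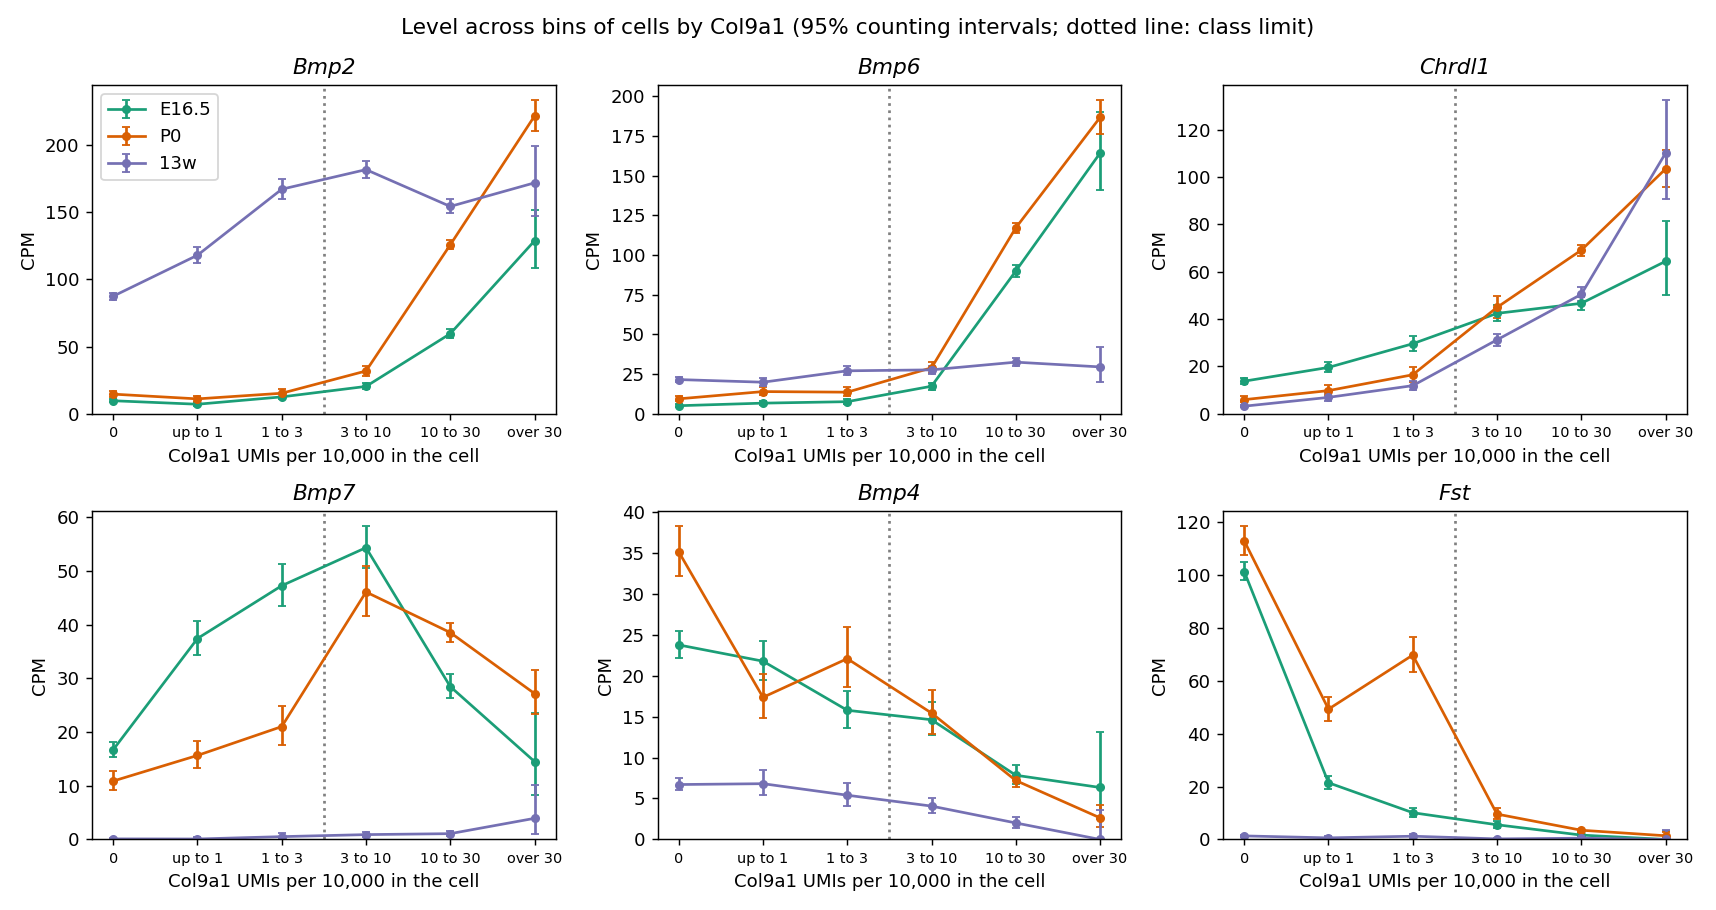
Level of 6 members in CPM over ranges of Col9a1 UMIs per 10000 at E16.5, P0 and 13w, with 95% counting intervals and a dotted line at the class limit. At E16.5 and P0 Bmp6 ends at 164.1 and 186.6 CPM in the highest range, Bmp7 peaks at 54.3 and 46.1 CPM between 3 and 10, and Fst is highest in cells without Col9a1.

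Within Col9a1-high cells a further division used Col10a1, the collagen of hypertrophic chondrocytes, at the same limit of 3 UMIs per 10000. Col10a1-high cells numbered 338, 791 and 268 at the 3 stages, and Col10a1-low cells 676, 955 and 1353. Bmp2 was higher in Col10a1-high cells at every stage: 90.7 CPM against 19.4 CPM in Col10a1-low cells at E16.5, 201.0 against 58.6 CPM at P0, and 353.3 against 114.8 CPM at 13w. Bmp6 was higher at E16.5 (125.9 against 26.7 CPM) and P0 (172.7 against 62.4 CPM), while its 13w values of 37.5 and 28.1 CPM differed by less than 2-fold. Bmp7 had the reverse order, with 12.4 CPM in Col10a1-high cells against 53.6 CPM in Col10a1-low cells at E16.5 and 24.0 against 50.2 CPM at P0. Bmp4 was also lower in Col10a1-high cells at P0, with 4.65 against 10.5 CPM, and stayed under 2-fold at E16.5, with 6.59 against 12.7 CPM. Chrdl1 did not reach 2-fold at any stage, with 48.6 against 43.6 CPM, 83.7 against 57.5 CPM and 44.7 against 42.6 CPM. No other member was called. Over all measured genes, 7.27%, 4.07% and 1.75% were called higher in Col10a1-high cells at E16.5, P0 and 13w, and 13.3%, 4.36% and 4.17% lower.

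**Figure D4:**
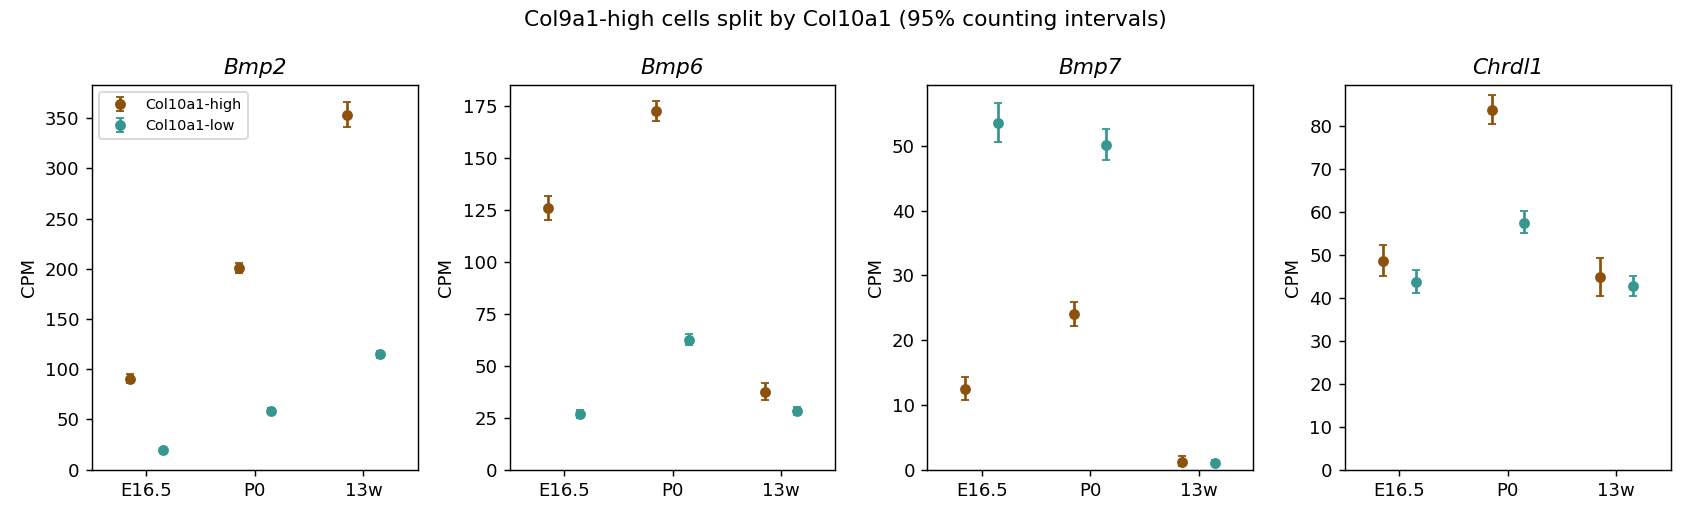
Bmp2, Bmp6, Bmp7 and Chrdl1 in CPM in Col10a1-high and Col10a1-low cells within the Col9a1-high class at each stage, with 95% counting intervals. Bmp2 is higher in Col10a1-high cells at all 3 stages, up to 353.3 CPM at 13w, and Bmp7 is lower there at E16.5 and P0.

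Clusters made without the members and other BMP pathway genes placed each member more closely. There were 33 clusters, 23 of which drew over 90% of their cells from 1 library, and 30 groups of at least 50 cells from 1 library and 1 cluster were kept. The R3hdml, Ibsp and F13a1-led group at 13w (679 cells) carried the highest Bmp2 level, 366.7 CPM, and 51.2% of the library's Bmp2 UMIs. Next came the 13w group led by Gm14636, Cxcl1 and Rcan1 (986 cells), of which only 8.82% were Col9a1-high: it had 217.0 CPM of Bmp2 and 20.9% of the UMIs. In the Matn1, Plaat3 and Col10a1-led cluster Bmp2 had 80.0 CPM at E16.5 and 216.2 CPM at P0, and Bmp6 had 114.4 and 175.8 CPM. Bmp7 was highest elsewhere, at 57.5 CPM in the E16.5 group led by Dqx1, Tubb2b and Acat2 and at 52.3 CPM in the P0 group led by Mtus2, Vldlr and C1qtnf3.

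Fst and Bmp4 met in a small newborn group. The 191 P0 cells led by Fst, Ifi27l2a and Krtdap had 914.8 CPM of Fst, 58.1% of the library's Fst UMIs, and 152.1 CPM of Bmp4, 20.9% of its Bmp4 UMIs. Fst was not used to form this cluster. At E16.5 Fst was spread over 3 groups: 502.7 CPM in the one led by Igf1, Tnmd and Fst, 265.1 CPM in the one led by Igfbp2, Fst and Ly6h, and 154.1 CPM in the one led by Col14a1, Sfrp2 and Igfbp2. Grem1 was highest in the first of these, at 31.4 CPM, followed by 17.1 CPM in the Col14a1-led group. Among adult groups of at least 50 cells, the one led by Prg4, Slurp1 and Serping1 (423 cells) was highest for Fst, at 12.3 CPM on 40 UMIs, for Bmp4, at 35.7 CPM, and for Bmp5, at 40.4 CPM. Gdf5 reached at most 14.6 CPM, in the P0 Matn1-led group, and Bmp3 at most 9.06 CPM in any group.

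**Figure D5:**
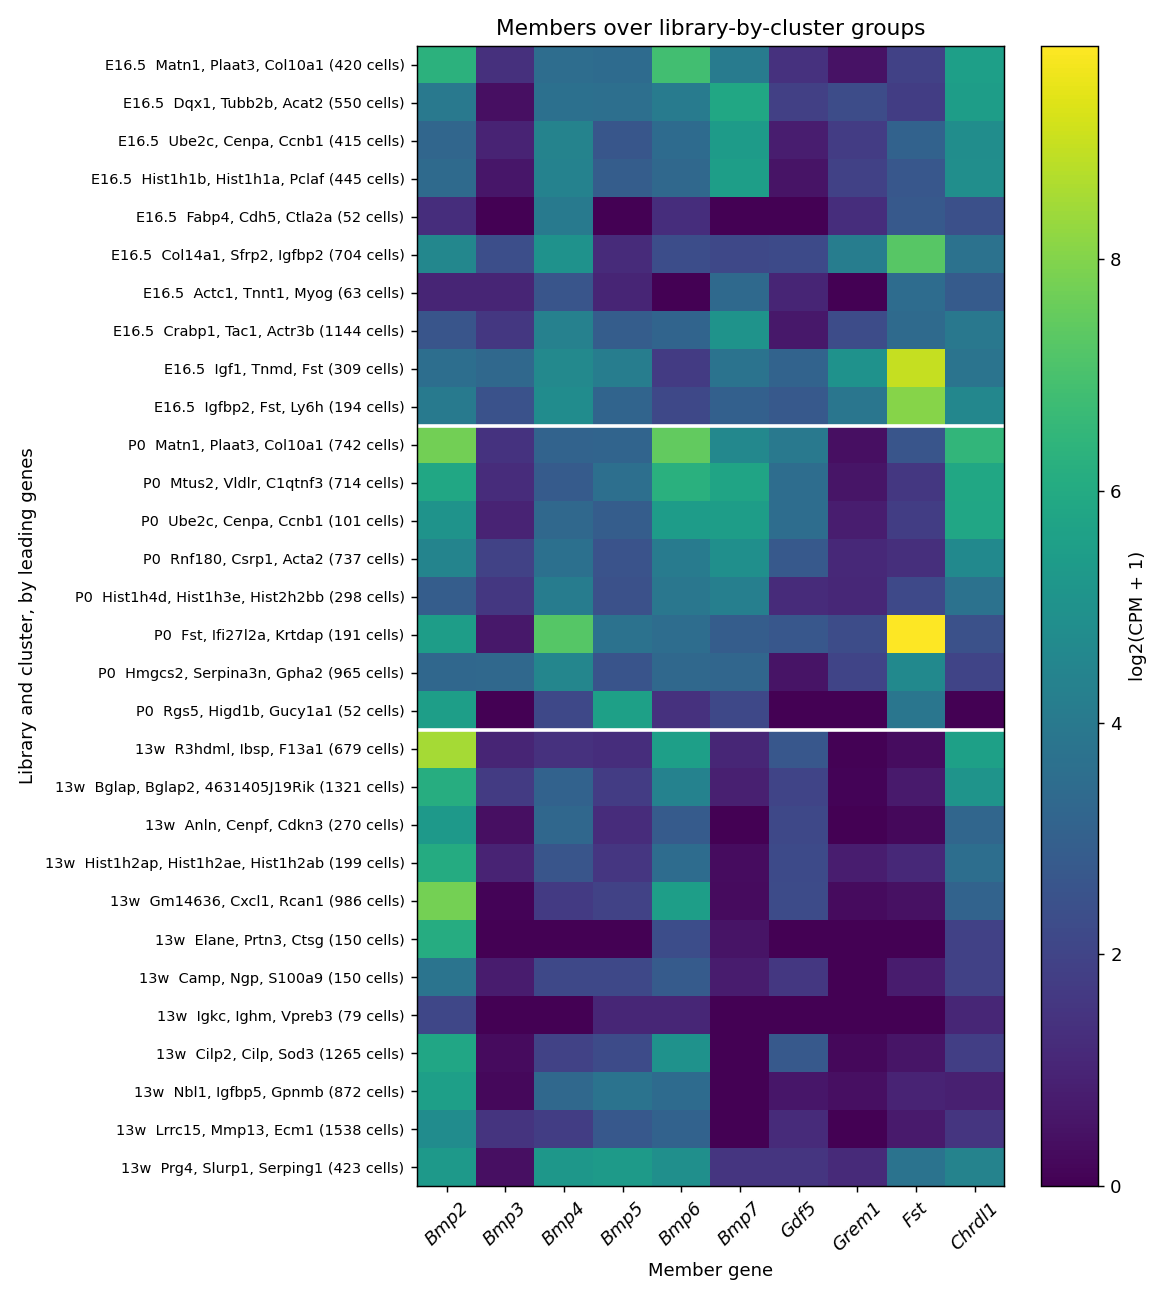
Level of the 10 members as log2(CPM + 1) in the 30 library-by-cluster groups of at least 50 cells, labelled by stage and leading genes. Fst is brightest in the P0 group led by Fst, Ifi27l2a and Krtdap (914.8 CPM), which also has the highest Bmp4 (152.1 CPM), and Bmp2 is brightest in the 13w group led by R3hdml, Ibsp and F13a1 (366.7 CPM).

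The genes whose pattern over these 30 groups was most like each member were ranked by Pearson correlation of log2(CPM + 1) among 6169 candidates; groups of 1 library share its depth and chemistry, so the values only describe. Bmp6 lay closest to Col27a1 (0.877), Slc35a2 (0.872) and the aggrecan gene Acan (0.860). For Bmp2 the nearest genes were Stk38l (0.859), Ell2 (0.852) and Fam20c (0.844). Bmp7 was nearest to Crtac1 (0.933), Capn6 (0.909) and Kcnk1 (0.888), and Bmp4 to the matrix genes Fbln2 (0.862), Mfap4 (0.856) and Eln (0.836). Fst had Eln (0.916), Foxp2 (0.905) and Igfbp2 (0.90), Grem1 had Vsnl1 (0.927), Prr16 (0.889) and Otor (0.886), and Chrdl1 had Car12 (0.864), Fads2 (0.854) and Sema3b (0.842). Bmp5 was nearest to Daam2 (0.807), Cyp26b1 (0.724) and Cd248 (0.721), and Gdf5 to Srpx (0.778), Irx3 (0.763) and Dhx32 (0.752). Bmp3 stayed under 10 CPM in every group and was not ranked.

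Joint detection was counted in cells thinned to 3000 UMIs. Among P0 Col9a1-high cells, Bmp2 was found in 31.8% (27.5 to 36.3) of the 450 cells with a Bmp6 UMI and in 18.0% (15.9 to 20.3) of those without. At 13w the shares were 39.1% with and 24.7% without a Bmp6 UMI in Col9a1-high cells, and 25.7% with and 14.1% without in the other cells. Cells with a Bmp7 UMI held Bmp2 less often in the P0 Col9a1-high class, at 13.9% (9.19 to 19.8) against 22.7% (20.6 to 24.9) of cells without. In the other P0 cells Bmp4 was found in 21.4% (16.4 to 27.0) of the 248 cells with a Fst UMI and in 5.73% (4.74 to 6.85) of those without, whereas at E16.5 these shares were 6.60% and 5.99%, with overlapping intervals.

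The other genes of the pathway were counted by role, with the named ones those of largest ratio. Over all 8261 genes measured for P0 over E16.5, 5.31% were called higher and 8.72% lower. The lists are short, so their counts only describe. Between P0 and E16.5, 1 of 3 measured other ligands was higher, Bmp8a (21.5 CPM at P0 and 3.86 CPM at E16.5), and 1 lower, Gdf11 (4.05 and 11.8 CPM). Among 8 other antagonists and binding proteins 3 were higher and 1 lower: Twsg1, which binds BMPs together with chordin, had 144.5 CPM at P0 and 55.5 CPM at E16.5, Nog, which encodes the BMP antagonist noggin, 39.2 and 18.9 CPM, and Sostdc1 6.46 and 20.3 CPM. None of 6 receptors and co-receptors passed in either direction. The inhibitory Smad7, with 166.2 CPM at P0 and 73.8 CPM at E16.5, was the 1 of 6 Smads that was higher. Of 8 targets 3 were higher and 0 lower: Smad7 again, Id1 (273.7 CPM at P0 and 132.9 CPM at E16.5) and Atoh8 (10.1 and 3.78 CPM). Among 5 proteases that process ligands 2 were higher, Furin (60.0 CPM at P0 and 24.7 CPM at E16.5) and Bmp1 (68.4 and 28.7 CPM), and 1 lower, Pcsk5 (6.98 and 16.1 CPM).

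Between 13w and P0, 0 of 6 receptors were called and 1 of 6 genes of the Smad list, the ubiquitin ligase Smurf1, was lower (6.83 CPM at 13w and 14.1 CPM at P0), counts near the 8.46% of all measured genes higher and 7.93% lower. Inhba, which encodes an activin subunit, was 1 of 2 measured other ligands and was higher, with 236.0 CPM at 13w and 39.5 CPM at P0. Of 8 other antagonists 3 were higher and 4 lower at 13w: Nbl1 had 277.6 CPM at 13w and 25.1 CPM at P0, Htra1 1143 and 158.5 CPM, and Bmper 3.05 and 19.5 CPM. Id2 was the 1 of 8 targets that was higher (366.2 CPM at 13w and 166.2 CPM at P0), and Pcsk6 the 1 of 4 proteases that was lower (19.0 and 53.0 CPM).

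Noggin was higher in Col9a1-high cells at each stage. Nog had 39.9 CPM in Col9a1-high cells and 6.0 CPM in the other cells at E16.5, 55.2 and 6.85 CPM at P0, and 30.4 and 9.26 CPM at 13w. Over the list of other antagonists, 3 of 8 were higher and 4 lower in Col9a1-high cells at E16.5, 3 of 9 higher and 5 lower at P0, and 1 of 8 higher and 3 lower at 13w. Beside them, 9.29%, 10.5% and 3.79% of all measured genes were called higher at the 3 stages, and 15.2%, 14.4% and 11.0% lower. Sostdc1 lay outside the class, with 0.989 CPM in Col9a1-high cells against 32.3 CPM in the other cells at E16.5 and 1.0 against 17.5 CPM at P0, as did Nbl1, with 2.68 against 39.2 CPM at E16.5 and 45.7 against 410.8 CPM at 13w, and Fstl1, with 117.8 against 620.8 CPM at P0 and 34.9 against 139.3 CPM at 13w.

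The pseudoreceptor Bambi was the 1 of 7 measured receptors that was higher in Col9a1-high cells at each stage, with 239.9 against 66.2 CPM in the other cells at E16.5, 241.6 against 43.7 CPM at P0 and 179.0 against 76.2 CPM at 13w. Eng at E16.5 (3.80 against 11.0 CPM) and Acvr1 at P0 (19.1 against 47.2 CPM) were lower, and no receptor was lower at 13w. No Smad passed at any stage, of 6, 6 and 5 measured. Of the targets, 1 of 6 was higher and 1 lower at E16.5, 1 of 8 higher at P0, and 1 of 7 higher and 1 lower at 13w, the higher one being Bambi each time. Over all measured genes, 9.29%, 10.5% and 3.79% were called higher and 15.2%, 14.4% and 11.0% lower at the 3 stages. The convertase gene Pcsk6 was higher in the class at every stage, with 45.5 against 14.7 CPM, 73.6 against 11.3 CPM and 37.7 against 8.30 CPM, and Pcsk5 was lower at E16.5 (4.61 against 23.3 CPM) and P0 (2.73 against 15.6 CPM). Other ligands with a difference were Bmp8a, higher at P0 (31.4 against 1.51 CPM) and 13w (83.2 against 14.1 CPM), Inhba, higher at E16.5 (37.5 against 17.0 CPM) and lower at 13w (89.9 against 320.0 CPM), and Gdf10, lower at E16.5 (3.72 against 13.4 CPM) and 13w (2.30 against 14.4 CPM).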

How the data were processed

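The authors deposited, for every library, a matrix of raw UMI counts. The file headers name Cell Ranger 6.1.2 as its source, and GRCm39 is the build in the submitters' processing notes; other upstream settings are not given in the sources used here. The members and gene lists were chosen with earlier results of these data known. Of 5458, 4853 and 8899 barcodes at E16.5, P0 and 13w, 77, 85 and 125 had under 500 genes and 842, 800 and 820 over 10% mitochondrial UMIs. The libraries shared 15 (E16.5 and P0), 13 (E16.5 and 13w) and 10 (P0 and 13w) barcode sequences. The automatic threshold of Scrublet marked only 5, 1 and 0 doublets. It was not used, and none were removed. An alternative left out the 181, 146 and 572 cells with the highest scores of the same run, whose accuracy was not tested. Counts were summed over kept cells and divided by their total (CPM, computed here); ratios have exact conditional binomial 95% intervals, levels exact Poisson ones and shares Clopper-Pearson ones. UMIs are counted molecules, yet mice were pooled, so no interval covers variation between animals. Clusters came from scanpy 1.11.5 (2000 variable genes, 30 components, 20 neighbours, Leiden resolution 1), with a joint graph and no batch correction; names of non-skeletal clusters came from marker lists. All 10 members are named; of the other pathway genes, up to 3 per role and comparison with the largest ratio among those called; and for likeness the 3 best genes of those with at least 50 CPM in 1 group. The ratio method was run on simulated independent Poisson counts. These hold no variation between cells or mice, so the run covers the calculation only. TMM factors came from edgeR 4.0.16. Alternatives changed scaling, filters on cells and low values, depth, doublets, other cell types, weighting and the Col9a1 limit.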

Additional observations from a re-analysis of the deposited data

Results flagged for a closer look

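For 5 members the log2 ratio had opposite signs in 2 groups of cells or at 2 stages, with both counting intervals excluding 0. The differences themselves were not tested, since each stage has 1 library.

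Bmp6 differed by class between 13w and P0, with -1.89 in Col9a1-high cells and 0.93 in the other cells. Gdf5 did likewise, with -1.60 in Col9a1-high cells and 0.66 in the other cells. Between P0 and E16.5, Chrdl1 had 0.61 in Col9a1-high cells and -0.98 in the other cells, and Bmp4 had -0.39 in Col9a1-high cells and 0.32 in the other cells. Bmp5 differed by stage, with a Col9a1-high over other ratio of -1.86 at 13w and 0.69 at E16.5. Of these 10 values, the Bmp6 and Gdf5 ratios in Col9a1-high cells were past 2-fold in a measured gene.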

How the results depend on the processing

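No paired analysis was possible because each stage has 1 library. Of 120 alternative counts of members, 98 stayed within 1.5 times the reported count. The reported counts, higher then lower, were 2 and 0 for P0 over E16.5, 0 and 5 for 13w over P0, and, for Col9a1-high over other cells, 3 and 2 (E16.5), 5 and 2 (P0), and 1 and 0 (13w). With no minimum CPM, lower counts became 1 for P0 over E16.5, 8 for 13w over P0, and 4, 4 and 4 between classes at the 3 stages, and the higher count at 13w became 2. At a minimum of 50 CPM, the lower count became 1 for 13w over P0; between classes it became 1 higher and 1 lower at E16.5, 3 higher and 1 lower at P0, and 0 higher at 13w. TMM and median-of-ratios factors each gave 4 higher (Bmp5 added) and 1 lower (Bmp4 lost) at E16.5 and 2 higher at 13w (Bmp2 added) between classes. Mean per-cell CPM, called by fold alone, and a Col9a1 limit of 1 UMI per 10000 also gave 1 lower at E16.5. Within Col9a1-high cells 3 members were lower for 13w over P0. Within the other cells 0 were higher for P0 over E16.5, and 1 higher and 3 lower for 13w over P0. The minimum and the scaling change counts by construction; for the rest the cause was not tested. Of 240 alternative values of the 20 called ratios, 239 kept their sign and 216 their call; the reversed value was Bmp6 for 13w over P0 in the other cells, 0.93 against -1.66. Low counts limit Bmp7, Fst and Grem1 at 13w, which rest on 56, 100 and 17 UMIs.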

Other observations

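Vascular cells, few in these libraries, also carried members of the set. In mural-like cells, led by Rgs5, Bmp5 had 71.5 CPM at E16.5 (18 UMIs in 18 cells, 42.4 to 113 CPM), 47.0 CPM at P0 (28 UMIs in 52 cells) and 45.7 CPM at 13w (4 UMIs in 11 cells), against 7.90, 7.98 and 4.33 CPM over all cells. Fst in the 13w mural-like cells had 68.6 CPM on 6 UMIs (25.2 to 149 CPM). Endothelial-like cells had 0 Bmp5 UMIs at each stage, in 52, 37 and 25 cells. Bmp6 in endothelial-like cells stood at 1.41 CPM at E16.5 (1 UMI), 52.3 CPM at P0 (30 UMIs, 35.3 to 74.7 CPM) and 31.1 CPM at 13w (5 UMIs, 10.1 to 72.5 CPM). Bmp4 in the same cells had 15.5, 5.23 and 49.7 CPM on 11, 3 and 8 UMIs. These counts are small, and the intervals cover counting error only.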
